A study of Homo sapiens with 6 samples.

Results

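The integrins, laminins and focal adhesion genes of HCT116 cells were taken as a list of 32 symbols chosen by function and read from the gene tables of 6 RNA-seq libraries, in which 60662 genes had a value. The list holds 7 alpha integrin subunits, 6 beta integrin subunits, 8 genes of laminin chains and fibronectin, 4 hemidesmosome genes and 7 focal adhesion genes. All 32 symbols were found. HCT116 is an established human colorectal cancer cell line, and the cells were stably transduced by lentivirus with a nontarget control shRNA (shCtrl, 3 libraries) or with shRNA 2 against the long noncoding RNA GMDS-AS1 (KD, 3 libraries). Both groups carried an integrated shRNA plasmid, were wild type in their labels, and were grown in McCoy's 5a medium with serum. The sequenced knockdown rests on 1 shRNA and 1 cell line, and the labels call the libraries of a group biological replicates. Values are TPM, a transcript level per gene length that sums to nearly the same total in each library.

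Integrins are cell surface receptors made of 1 alpha and 1 beta subunit, and the pair decides which matrix protein is bound. Laminins are trimers of an alpha, a beta and a gamma chain and form the basement membrane on which gut epithelium rests, while fibronectin is a matrix protein bound chiefly through ITGA5 with ITGB1 and through ITGAV. On the inner side of the membrane, integrins with ITGB1 are tied to actin by talin, kindlin, paxillin and the kinase complexes of focal adhesions, whereas ITGA6 with ITGB4 is tied to keratin through plectin and dystonin in hemidesmosomes.

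The shRNA 2 target is shown because it defines the perturbation, and it was read from the oligo list of the study. Its 21 bases were found in full in transcripts of 1 gene of the GENCODE v29 annotation, GMDS-DT, the symbol under which GMDS-AS1 is listed, and in transcripts of 0 of the 32 genes.
GMDS-AS1 shRNA 2 target: AAGACCACAGATAGATGGTAA
GMDS-AS1 itself was at 1.66, 2.21 and 1.34 TPM in shCtrl libraries and at 0.88, 0.91 and 0.79 TPM in KD libraries. All 3 KD libraries were below the lowest shCtrl library, and the log2 fold change was -0.41 (SE 0.14, adjusted p = 0.0412). That call is a narrow one, since it held when shCtrl replicate 3 was left out (adjusted p = 0.0294) and was lost without any other single library (adjusted p of 0.0718 to 0.118).

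The sum of TPM was 991058 to 992992 per library, and these files keep no read total, so the counting depth is unknown. Between 15135 and 15248 genes reached 1 TPM in shCtrl libraries and 14163 to 14292 in KD libraries. The 10 colon epithelial markers summed to 9427 to 9877 TPM in shCtrl and 3592 to 3705 TPM in KD libraries. Of 7 tested markers 4 were lower, where 25.8% of all genes tested were lower. Among the 4 were KRT8 (log2 fold change -1.45) and KRT18 (-1.83), the keratin pair of simple epithelium. The keratins KRT8, KRT18 and KRT19 held most of that sum, with shCtrl means of 4426, 2972 and 1769 TPM, so its fall is chiefly one of keratins. CDX1 was listed at 0 in all 6 libraries. VIL1 and LGALS4 were scarce, with shCtrl means of 0.27 and 0.49 TPM, and were not tested. The epithelial marker EPCAM was at 156 ± 13.3 TPM in shCtrl and 149 ± 9.52 TPM in KD libraries (SD, n = 3). EPCAM, CDH1 (log2 fold change 0.13) and CDX2 (0.02) were not called. The 6 fibroblast markers summed to 13.5 to 15.0 TPM and 10.2 to 11.3 TPM, the 6 leukocyte markers to 6.66 to 8.59 TPM and 7.10 to 8.62 TPM, and the 6 endothelial markers to 0.60 to 1.17 TPM and 0.21 to 0.65 TPM. Most of the fibroblast sum was COL1A1 and most of the leukocyte sum was CD68, with shCtrl means of 13.6 and 7.07 TPM. PTPRC, the defining leukocyte gene, was listed at 0. The part of the keratin loss in the results on adhesion genes was not tested. In bulk RNA, fewer cells of a type and less RNA per cell cannot be told apart.

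Fold changes below are from limma on log2(TPM + 1), KD minus shCtrl, after a scaling that centred the typical gene, so that the median log2 fold change of all 16901 genes tested was 0.00. Without that scaling the same median was -0.20. Of the 32 genes, 30 passed the filter on low values, 18 were lower and 7 were higher at an adjusted p under 0.05, and 5 were not called. Over all genes tested, 25.8% were lower and 28.7% were higher. At a fold of at least 2, 4 of the adhesion genes were lower and 0 were higher, where 4.21% of all genes were lower and 2.96% were higher. The median log2 fold change of the 30 genes was -0.37. With TPM as deposited, 21 of the 30 were lower and 1 was higher, with 40.3% of all genes lower and 16.3% higher, so the 7 higher calls rest on the scaling for 6 of the genes.

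**Figure D1:**
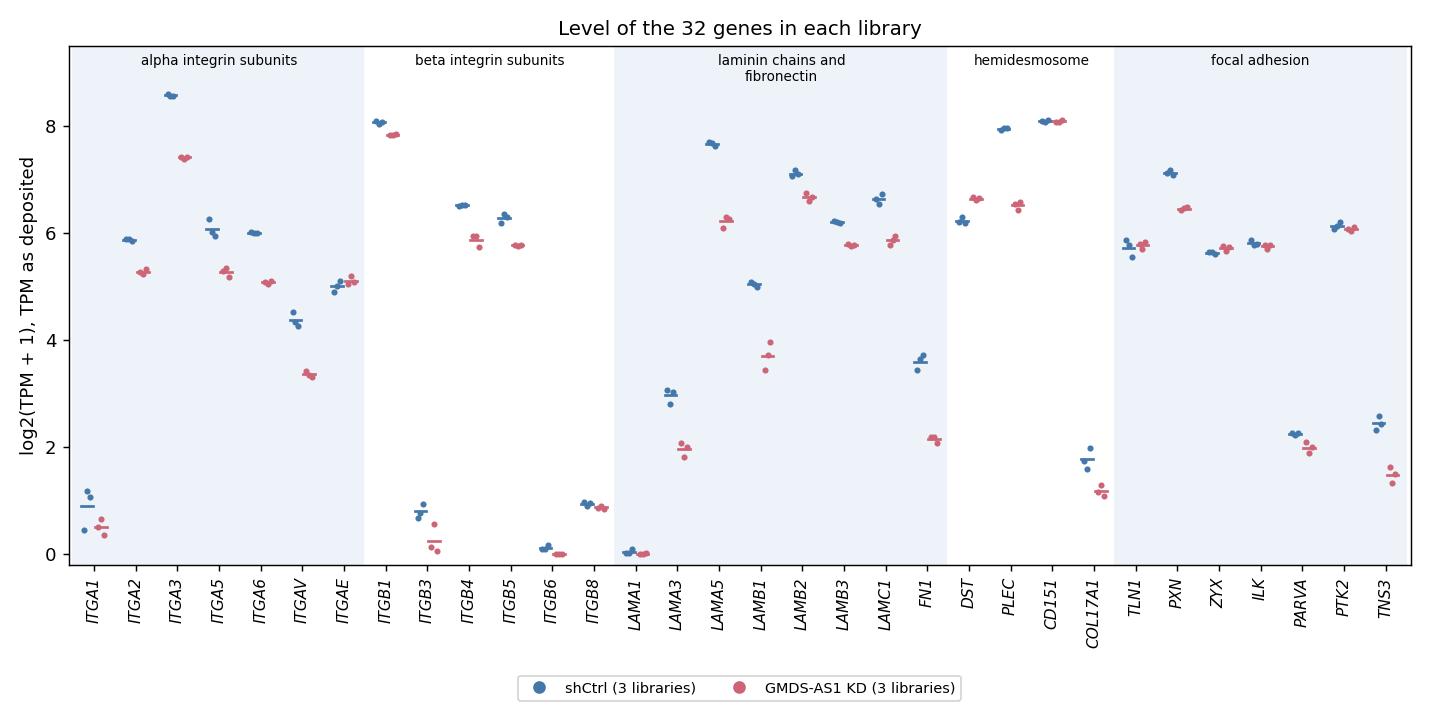
Level of each of the 32 genes as log2(TPM + 1), TPM as deposited, with 1 point per library (shCtrl blue, KD red) and a bar at the group mean, ordered by role. LAMA5, LAMB1, FN1 and PLEC sit clearly lower in all 3 KD libraries, DST sits higher in all 3, and ITGB6 and LAMA1 lie near 0 in every library.

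Within the list, the matrix ligands were the group that moved most uniformly. All 7 listed laminin and fibronectin genes that could be tested were lower in KD cells, where 25.8% of all genes tested were lower. Of the 7, 3 fell by at least 2-fold, where 4.21% of all genes did. The group median was -0.80 on the log2 scale. The 3 were LAMA5, LAMB1 and FN1. Laminin chains outside the list were not uniform, with LAMC3 higher (log2 fold change 0.73), LAMA4 lower (-0.50) and LAMA2 not called (0.28), as given below.

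LAMA5, the alpha chain of the laminins of adult epithelial basement membranes, lies on the minus strand of chromosome 20 at 62307955 to 62367312 (GRCh38). It was at 206.16, 204.70 and 196.65 TPM in shCtrl libraries and at 67.07, 78.19 and 75.98 TPM in KD libraries. The groups were far apart, with the highest KD library at less than the lowest shCtrl library by more than 100 TPM. The log2 fold change was -1.20 (SE 0.061, adjusted p = 8.33e-06), a 2.30-fold fall after scaling.

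LAMB1, the classical laminin beta chain, lies on the minus strand of chromosome 7 at 107923799 to 108003255. Its level was 32.94, 32.05 and 30.81 TPM in shCtrl and 9.81, 12.16 and 14.59 TPM in KD libraries. The KD libraries were more spread than the shCtrl libraries, but the ranges did not meet. This gave a log2 fold change of -1.10 (SE 0.12, adjusted p = 0.000347), which leaving out KD replicate 1 brought to -0.96, short of 2-fold.

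FN1, which encodes fibronectin, lies on the minus strand of chromosome 2 at 215360440 to 215436172. Its level was 9.78, 11.46 and 12.18 TPM in shCtrl and 3.54, 3.58 and 3.23 TPM in KD libraries. The KD libraries were almost equal to each other and all below the shCtrl range. FN1 had a log2 fold change of -1.23 (SE 0.10, adjusted p = 7.30e-05).

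The other laminin chains fell less. LAMA3, the alpha chain of the epithelial anchoring laminin, went from 6.82 ± 0.711 to 2.91 ± 0.354 TPM (SD, n = 3 in each group here and below), a log2 fold change of -0.80. LAMC1, the gamma chain of most laminins, went from 98.7 ± 6.29 to 57.2 ± 3.61 TPM, a log2 fold change of -0.53. LAMB2 and LAMB3, the alternative beta chains, were at 137 ± 5.25 and 72.8 ± 1.06 TPM in shCtrl cells and at 101 ± 5.06 and 53.8 ± 0.616 TPM in KD cells, with log2 fold changes of -0.19 and -0.18. The changes of LAMB2 and LAMB3 were therefore close to the size of the scaling itself, while those of LAMA5, LAMB1 and FN1 were several times larger. LAMA1, the alpha chain of the embryonic laminin, was listed at 0.01, 0.01 and 0.07 TPM in shCtrl and 0, 0 and 0.01 TPM in KD libraries. It was not tested and cannot be read as expressed in either group.

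The unequal fall changed the make-up of the laminin chains within each library, a measure that does not depend on the scaling. LAMA5 was 36.8% ± 0.810 of the summed TPM of the 7 laminin chains in shCtrl and 24.5% ± 1.67 in KD libraries. LAMB2 rose in share from 25.0% ± 0.938 to 33.6% ± 2.16, and LAMB3 from 13.2% ± 0.151 to 17.9% ± 0.540. LAMB1 went the other way, from 5.80% ± 0.178 to 4.04% ± 0.694, while LAMC1 was at 17.9% ± 1.20 and 19.0% ± 0.737 with ranges that overlapped. For LAMA5, LAMB1, LAMB2 and LAMB3 the 3 KD libraries lay outside the shCtrl range, which gives p = 0.1 in the two-sided exact permutation test, the smallest p that 3 against 3 libraries allow, and 0.175 after Benjamini-Hochberg adjustment over the 7 chains. LAMA5 was the most abundant chain in shCtrl libraries and LAMB2 in KD libraries.

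The upstream sequences of LAMA5, LAMB1 and FN1 are shown because these are the matrix ligand genes that fell by at least 2-fold. Each is the part of the 250 bases before the RefSeq start that lies outside the gene in GENCODE v29, taken from RefSeq on GRCh38.p14 and written 5′ to 3′ on the gene's minus strand. They span chr20:62367313-62367562, chr7:108003256-108003411 and chr2:215436173-215436318. Capitals mark GGGCGG, the Sp1 box, on either strand, where overlapping copies run together.
LAMA5: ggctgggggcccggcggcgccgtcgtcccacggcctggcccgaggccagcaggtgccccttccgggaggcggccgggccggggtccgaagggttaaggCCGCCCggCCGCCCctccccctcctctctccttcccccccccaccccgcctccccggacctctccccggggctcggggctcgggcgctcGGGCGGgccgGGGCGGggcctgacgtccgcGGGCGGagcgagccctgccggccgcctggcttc
LAMB1: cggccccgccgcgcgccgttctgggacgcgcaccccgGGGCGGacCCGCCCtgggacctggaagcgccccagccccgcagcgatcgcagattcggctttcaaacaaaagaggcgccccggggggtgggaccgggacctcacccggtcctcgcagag
FN1: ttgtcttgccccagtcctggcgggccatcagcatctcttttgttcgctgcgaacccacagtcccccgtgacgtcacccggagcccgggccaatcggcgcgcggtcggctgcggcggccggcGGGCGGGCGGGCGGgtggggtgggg
The stretches hold 5, 2 and 3 copies, and their GC content was 82.8%, 75.0% and 74.0%. Over the whole 250 bases, GGGCGG was in 17 of 24 matched adhesion genes (70.8%) and in 42.6% of 35116 promoters. The 2 sets are unlike. The 24 are 1 promoter per protein-coding gene, and the 35116 were not limited to 1 promoter per gene or to protein-coding genes. Whether the difference is particular to adhesion genes was not tested. It was also in promoters of genes that were higher or not called, such as DST, ZYX and ITGB1. The AP-1 motif TGANTCA was in 1 of the 24 (LAMA3, 4.17%) and in 6.57% of all promoters, the TEAD motif CATTCC in 3 (DST, ITGA5 and ITGB1, 12.5%) and 11.9%, and the STAT motif TTCNNNGAA in 2 (ITGAE and LAMB2, 8.33%) and 6.57%. All motifs were searched on both strands, no motif of the 4 contains another, and a match is a description of letters and not of binding.

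Among the alpha subunits, 5 of 7 were lower, 1 was higher and 1 was not called. Over all genes tested, 25.8% were lower and 28.7% higher. The median log2 fold change of the alpha subunits was -0.56. ITGA3, the laminin receptor subunit paired with ITGB1, was the most abundant alpha subunit in both groups. Its level ranged from 378.93 to 388.67 TPM in shCtrl and from 167.25 to 171.24 TPM in KD libraries. The log2 fold change of -0.92 (SE 0.023, adjusted p = 7.02e-07) came just short of 2-fold after scaling, and was -1.17 with TPM as deposited.

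ITGAV, which pairs with several beta subunits to bind fibronectin and vitronectin, went from 19.8 ± 2.06 to 9.26 ± 0.366 TPM, a log2 fold change of -0.78. ITGA6, the alpha partner of ITGB4 in hemidesmosomes, went from 63.1 ± 0.546 to 32.8 ± 0.555 TPM (-0.68). ITGA5, the fibronectin receptor subunit, went from 66.8 ± 8.32 to 37.7 ± 2.25 TPM (-0.56). ITGA2, a collagen receptor subunit, fell the least of the 5, from 57.6 ± 1.04 to 37.8 ± 1.23 TPM (-0.35). All 5 kept their call under every scaling tried and with each library left out in turn.

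ITGAE, the alpha subunit that pairs with ITGB7 to bind E-cadherin and is best known from intraepithelial T cells, was the exception. Its level was 31.1 ± 2.30 TPM in shCtrl and 33.6 ± 1.90 TPM in KD libraries, with overlapping ranges. The log2 fold change was 0.35 after scaling (adjusted p = 0.00678) and 0.11 as deposited (adjusted p = 0.219), so its rise is one relative to the typical gene. Exons of HASPIN, read from the opposite strand, overlap 6.41% of the exon bases of ITGAE. Its partner ITGB7, named here after its values were seen, was scarce. ITGB7 was at 0.470 ± 0.183 TPM in shCtrl and 0.810 ± 0.346 TPM in KD libraries and was not called (adjusted p = 0.117). ITGA1, another collagen receptor subunit, was at 0.36, 1.27 and 1.09 TPM in shCtrl and 0.42, 0.58 and 0.27 TPM in KD libraries and was not called (adjusted p = 0.274), except when shCtrl replicate 1 was left out (log2 fold change -0.52, adjusted p = 0.0429).

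The order of the alpha subunits by level in shCtrl libraries was ITGA3, ITGA5, ITGA6, ITGA2, ITGAE, ITGAV and ITGA1. The levels of ITGA5 and ITGA6 overlapped, and those of the other neighbours did not. In KD libraries ITGA3 remained first, ITGA2 and ITGA5 overlapped in second place, and ITGAE at 31.95 to 35.65 TPM overlapped both ITGA5 at 35.24 to 39.64 TPM and ITGA6 at 32.17 to 33.27 TPM. As a share of the summed alpha TPM, ITGA3 went from 61.5% ± 0.567 to 52.9% ± 0.674, ITGAE from 5.01% ± 0.478 to 10.4% ± 0.602 and ITGA2 from 9.27% ± 0.129 to 11.8% ± 0.383. In these 3 genes the library ranges did not meet (two-sided exact permutation p = 0.1, the smallest possible, and 0.233 adjusted over 7 subunits).

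The beta subunits ITGB1, ITGB4 and ITGB5 moved less than those of their alpha partners that were called. Of 5 beta subunits tested, ITGB4 and ITGB5 were lower, none was higher, and ITGB1, ITGB3 and ITGB8 were not called. The shares over all genes tested were 25.8% lower and 28.7% higher. ITGB1, the common partner of ITGA1, ITGA2, ITGA3, ITGA5 and ITGA6, ranged from 263.27 to 273.77 TPM in shCtrl and from 225.89 to 229.89 TPM in KD libraries. Its log2 fold change was 0.01 after scaling, with a 95% interval from -0.05 to 0.08 and an adjusted p of 0.704. With TPM as deposited it was -0.24 (adjusted p = 0.000264), close to the -0.20 of the median gene, so no direction can be given for ITGB1. Neither value approaches the fall of ITGA3, and the ratio of ITGA3 to ITGB1 within a library went from 1.42 ± 0.0140 to 0.746 ± 0.0111. ITGA3 thus went from more abundant than ITGB1 to less abundant in all 3 KD libraries. This ratio, and those given below, were chosen after the values were seen and are descriptions.

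ITGB4, the hemidesmosomal beta subunit with a long tail that binds plectin, went from 90.6 ± 1.01 to 57.7 ± 4.56 TPM, a log2 fold change of -0.40 (adjusted p = 0.00195). ITGB5, a vitronectin receptor subunit paired with ITGAV, went from 76.7 ± 4.46 to 53.6 ± 0.324 TPM (-0.26, adjusted p = 0.00344). ITGB4 and ITGB5 did not overlap in shCtrl libraries, but their ranges met in KD libraries. The ratio of ITGA6 to its partner ITGB4 went from 0.697 ± 0.0135 to 0.571 ± 0.0554.

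The 3 remaining beta subunits were scarce. ITGB3, the partner of ITGAV on endothelium and of ITGA2B on platelets, was at 0.59, 0.71 and 0.92 TPM in shCtrl and 0.10, 0.47 and 0.04 TPM in KD libraries. It passed the filter only through the shCtrl libraries and was not called (log2 fold change -0.47, adjusted p = 0.0607). It was called lower as deposited, with upper-quartile scaling, and when KD replicate 2 was left out (log2 fold change -0.65). ITGB6, an epithelial partner of ITGAV, was listed at 0.07, 0.06 and 0.12 TPM in shCtrl and at 0 in all 3 KD libraries, and was too low to test. ITGB8, another partner of ITGAV, was at 0.913 ± 0.0569 and 0.827 ± 0.0379 TPM (log2 fold change 0.05 after scaling, -0.07 as deposited).

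**Figure D2:**
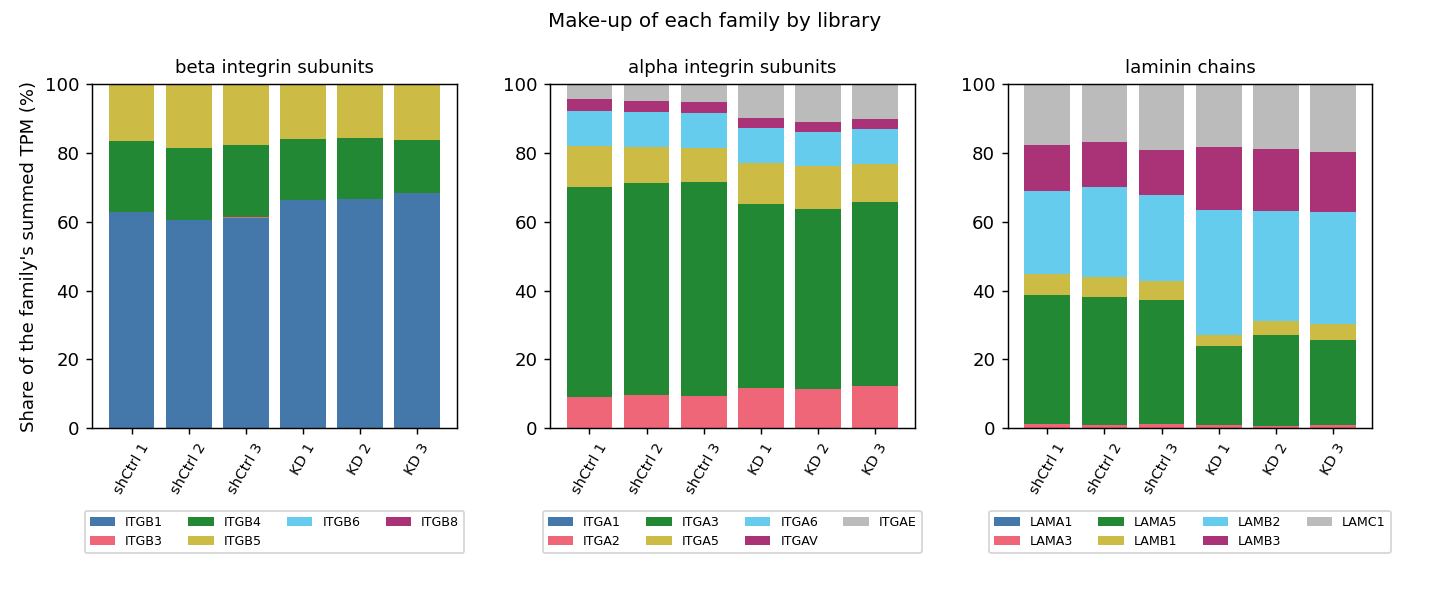
Share of each family's summed TPM in percent, with 1 stacked bar per library, for the beta integrin subunits, the alpha integrin subunits and the laminin chains. ITGB1 takes 60.4% to 62.7% of the beta subunits in shCtrl and 66.3% to 68.2% in KD libraries, ITGA3 and LAMA5 take smaller shares in KD libraries, and ITGAE and LAMB2 take larger ones.

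Among the beta subunits the share of ITGB1 was 61.4% ± 1.19 in shCtrl and 67.0% ± 1.06 in KD libraries, that of ITGB4 20.7% ± 0.180 and 17.0% ± 1.22, and that of ITGB5 17.5% ± 1.02 and 15.8% ± 0.220. The library ranges of each of these did not meet (two-sided exact permutation p = 0.1 and 0.12 adjusted over 6 subunits). The summed TPM of the alpha subunits fell from 622 ± 14.7 to 321 ± 0.471 TPM, while that of the beta subunits fell from 437 ± 1.77 to 340.1 ± 2.67 TPM. Alpha transcripts therefore outnumbered beta transcripts in shCtrl libraries and not in KD libraries, on the TPM scale.

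Of the 4 hemidesmosome genes, 2 were lower and 2 were higher, where 25.8% of all genes tested were lower and 28.7% higher. Hemidesmosomes hold epithelial cells to the laminin beneath them, with plectin and dystonin as the plaque proteins that reach keratin filaments. These 2 plakins moved in opposite directions.

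PLEC, which encodes plectin, lies on the minus strand of chromosome 8 at 143915147 to 143976734. It was at 243.52, 248.17 and 249.51 TPM in shCtrl and 92.64, 85.77 and 95.03 TPM in KD libraries. Every KD library was far below every shCtrl library. For PLEC the log2 fold change was -1.18 (SE 0.037, adjusted p = 1.44e-06), a 2.27-fold fall after scaling.

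DST, which encodes dystonin in epithelial, muscle and neuronal forms that a gene total does not separate, lies on chromosome 6 at 56457987 to 56954628. Its level ranged from 72.40 to 77.69 TPM in shCtrl and from 96.78 to 100.91 TPM in KD libraries. All 3 KD libraries were above the shCtrl range. The log2 fold change was 0.66 (SE 0.035, adjusted p = 9.79e-06) after scaling and 0.41 as deposited (adjusted p = 0.000146), which made DST the 1 gene of the 30 that was higher with and without scaling. The ratio of DST to PLEC within a library went from 0.30 ± 0.012 to 1.09 ± 0.041, so dystonin transcripts went from fewer than plectin transcripts to slightly more.

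CD151, a tetraspanin that binds the laminin-binding integrins, was at 273 ± 3.95 and 271 ± 4.47 TPM. It was higher after scaling (log2 fold change 0.24, adjusted p = 0.000356) and at -0.01 as deposited (adjusted p = 0.718), so the direction depends on the scaling. Exons of POLR2L on the opposite strand overlap 6.53% of its exon bases. COL17A1, the transmembrane collagen of hemidesmosomes, was low in both groups, at 2.43 ± 0.492 and 1.26 ± 0.162 TPM. Its log2 fold change was -0.44 (adjusted p = 0.0346), and leaving out shCtrl replicate 1, shCtrl replicate 3, KD replicate 1 or KD replicate 3 ended the call, with adjusted p-values of up to 0.0949. The fit with a replicate block ended it as well (adjusted p = 0.0799).

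**Figure D3:**
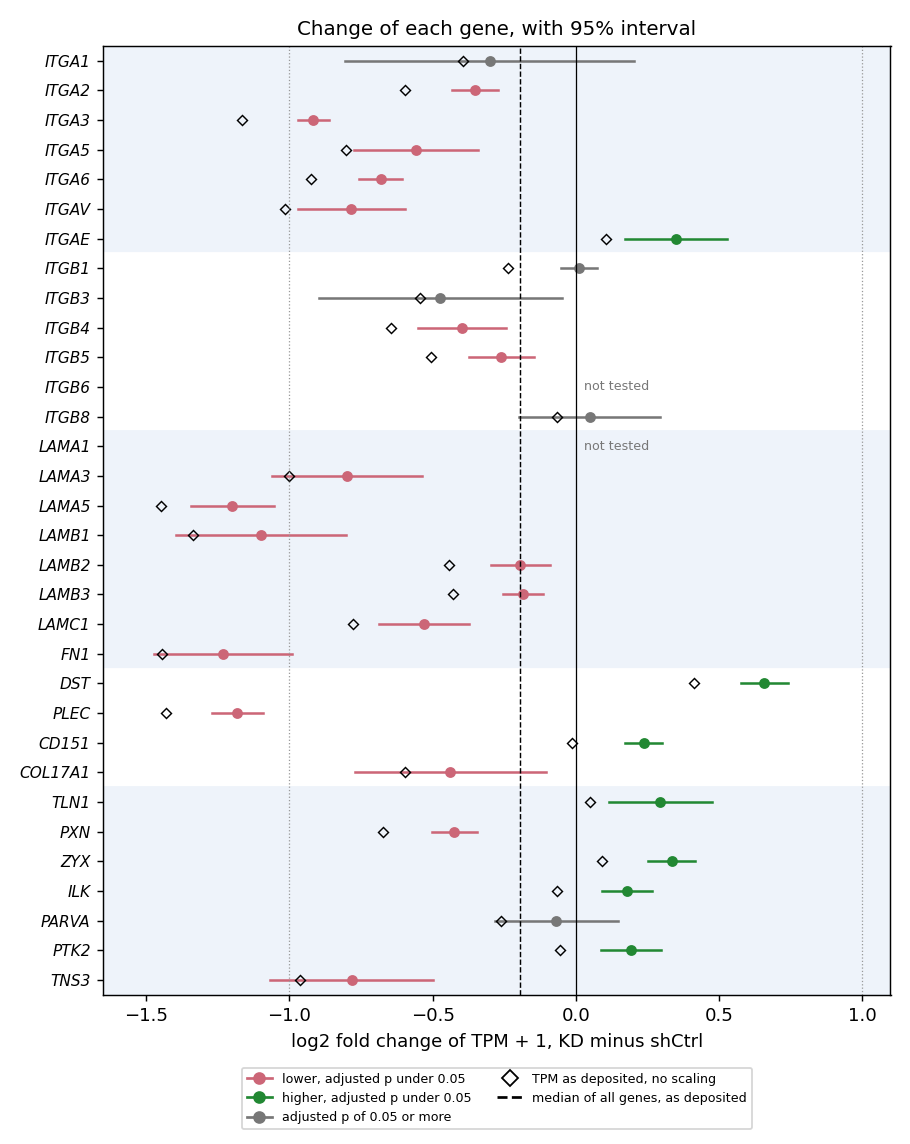
Log2 fold change of TPM + 1, KD minus shCtrl, for each gene, with the 95% interval of the scaled fit as a line, the estimate as a dot coloured by its call, and the value from TPM as deposited as an open diamond. The dashed line marks the median of all genes as deposited (-0.20) and the dotted lines a 2-fold change; 4 dots lie below -1, and the 6 higher genes other than DST have diamonds near 0.

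The focal adhesion genes did not move together. Of 7, 2 were lower, 4 were higher and 1 was not called, and the median log2 fold change was 0.18. Over all genes tested, 25.8% were lower and 28.7% higher. PXN, which encodes paxillin, the scaffold that recruits kinases to integrin tails, went from 139 ± 4.78 to 87.0 ± 1.99 TPM, a log2 fold change of -0.42 (adjusted p = 6.10e-05). TNS3, a tensin that links integrin tails to actin, went from 4.45 ± 0.507 to 1.79 ± 0.290 TPM (-0.78, adjusted p = 0.00147). Both were lower under every scaling. The antisense gene PXN-AS1 overlaps 12.3% of the exon bases of PXN and was at 10.7 and 9.01 TPM on average.

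The 4 higher genes were close to equal in TPM as deposited. TLN1, which encodes talin, the activator of integrins, was at 52.3 ± 5.96 and 53.9 ± 2.32 TPM, with a log2 fold change of 0.30 after scaling and 0.05 as deposited. ZYX, which encodes the tension sensor zyxin, was at 48.5 ± 0.669 and 51.7 ± 1.89 TPM (0.34 and 0.09). ILK, the integrin-linked pseudokinase, was at 55.4 ± 1.76 and 52.9 ± 1.29 TPM (0.18 and -0.07), and PTK2, focal adhesion kinase, at 69.4 ± 3.04 and 66.8 ± 1.80 TPM (0.19 and -0.05). None of the 4 was called as deposited (adjusted p of 0.092 to 0.641), and ILK and PTK2 changed sign, so they can be called higher only relative to the typical gene. For ILK, 68.1% of the exon bases are also exon of TAF10 on the opposite strand, and the strand of the libraries is not given, so its reads and those of TAF10 cannot be told apart. PARVA, which encodes the parvin bound to ILK, was at 3.75 ± 0.0737 and 2.98 ± 0.285 TPM and was not called (log2 fold change -0.07, adjusted p = 0.563), whereas as deposited it was called lower (-0.26, adjusted p = 0.0477).

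The wider pathway was described with 5 lists of related genes. Of all genes tested, 25.8% were lower and 28.7% were higher, and the counts below stand beside these shares. Of 13 other integrin subunits, 5 passed the filter, and 4 of these were lower and none higher. Of the 4, ITGA9, named here after its values were seen, passed only through the shCtrl libraries (1.12 ± 0.132 against 0.207 ± 0.0569 TPM), so the filter favoured its lower call. ITGAX, a leukocyte integrin subunit, went from 7.06 ± 0.168 to 0.640 ± 0.201 TPM (log2 fold change -2.15), and ITGA7, a laminin receptor subunit of muscle, from 15.6 ± 0.946 to 3.94 ± 0.561 TPM (-1.54). ITGB2, the beta partner of ITGAX, was at no more than 0.65 TPM in any library and was not tested.

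Among other laminin chains, LAMC3 was higher and LAMA4 lower. LAMC3, a gamma chain, went from 6.86 ± 0.743 to 10.2 ± 0.875 TPM (0.73) and was chosen for mention after its value was seen, as was LAMA4, at 4.24 ± 0.452 and 2.26 ± 0.313 TPM (-0.50). LAMA2, an alpha chain named likewise, was at 6.51 ± 0.849 and 6.83 ± 0.799 TPM and was not called (0.28, adjusted p = 0.0998). Of 15 other matrix ligands and basement membrane genes, 8 were tested, 5 were lower and none was higher. The shares over all genes tested were 25.8% lower and 28.7% higher. THBS1, the matricellular protein thrombospondin, went from 5.13 ± 0.506 to 0.583 ± 0.0723 TPM (-1.80), and COL18A1, a basement membrane collagen, from 41.6 ± 1.39 to 16.7 ± 1.06 TPM (-1.03).

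Of 41 other focal adhesion adaptors, 39 were tested, and 15 were higher, 14 lower and 10 not called, with a median log2 fold change of 0.06. As deposited the split was 7 higher and 18 lower. Of all genes tested, 28.7% were higher and 25.8% lower, and as deposited 16.3% were higher and 40.3% lower. TNS4, a tensin without the actin-binding end, went from 19.3 ± 1.46 to 6.85 ± 0.782 TPM (-1.14), while FERMT3, the kindlin of blood cells, went from 0.567 ± 0.137 to 2.83 ± 0.578 TPM (1.42). FERMT3 was at 0.41, 0.66 and 0.63 TPM in shCtrl libraries and passed the filter only with KD libraries counted, so the filter favoured its higher call. Of 13 tetraspanins and integrin regulators, 12 were tested, with 6 higher and 4 lower, and as deposited 2 higher and 6 lower. SLC3A2, the heavy chain of amino acid transporters that binds the ITGB1 tail, went from 556 ± 16.0 to 124 ± 4.72 TPM (-1.90), and CD82, a tetraspanin, from 17.5 ± 1.72 to 4.68 ± 0.545 TPM (-1.48).

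**Figure D4:**
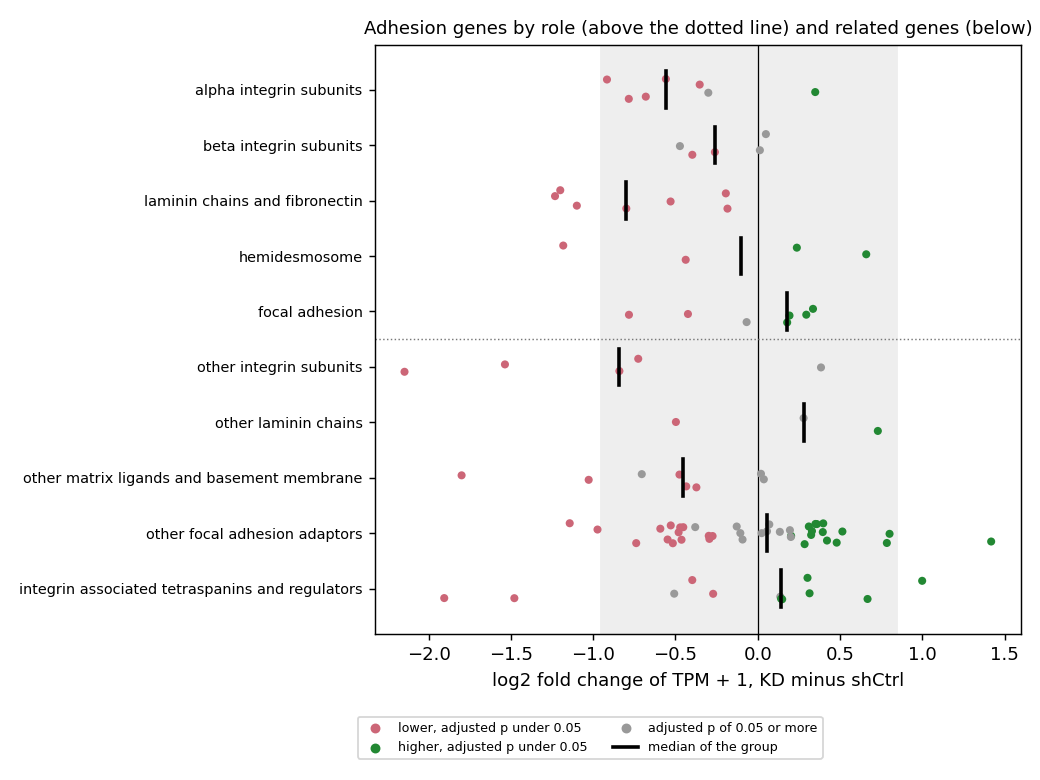
Log2 fold change of TPM + 1, KD minus shCtrl, with 1 point per tested gene coloured by its call, a black bar at the median of each group, and a grey band from the 5th to the 95th percentile of all genes tested (-0.95 to 0.84). The points of the laminin and fibronectin group above the dotted line all lie left of 0. Those of the other laminin chains lie on both sides of 0, and both focal adhesion groups straddle it.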

How the data were processed

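Poly-A RNA of HCT116 cells was sequenced in 3 shCtrl and 3 KD libraries with a TruSeq kit whose strand setting is not given in the sources used here. The submitters' processing notes name Trimmomatic 0.27, TopHat2 2.1.1 and GRCh38.p13, and the study's methods name Cufflinks, RSEM and, for its own comparison, DESeq2. TPM values per Ensembl gene were deposited by the authors, a unit that keeps no read total, so no count test was used. A value was read for 60662 genes.

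TPM was scaled by an unweighted trimmed mean of log ratios (30% and 5% trimmed) over the genes that reached 0.5 TPM in 3 or more libraries, and log2(TPM + 1) was fitted with limma 3.58.1 in R 4.3.3 (variance trend, no replicate block, Benjamini-Hochberg over 16901 genes, two-sided). The fit was first tested on simulated data with equal numbers of raised and lowered genes. Those data held no shift between the groups, so that test cannot judge the scaling. Fold changes of low genes are understated by the pseudocount of 1. Shares within a library were compared by exact permutation in scipy 1.17.1. Positions and overlaps are from GENCODE v29, and promoters from RefSeq matched 24 of the 32 symbols. Alternatives were 3 other scalings (none, upper-quartile, median-of-ratios), a pseudocount of 0.1, other filters, no variance trend, a replicate block and leaving out each library.

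The 32 genes and the lists were chosen with earlier results of these data known. All 32 are named. Genes changed by at least 2-fold, or under 0.5 TPM in at least 4 libraries, are given in every library. Of each related list, at most 5 genes changed by at least 2-fold are named, and 1 item of the lists is not reported here.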

Additional observations from a re-analysis of the deposited data

How the results depend on the processing

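The 18 lower calls all remained with TPM as deposited, upper-quartile and median-of-ratios scaling, a pseudocount of 0.1, at least 1 TPM in every library and no variance trend. Higher calls numbered 7 in the scaled fit, 1 with TPM as deposited and 4 with upper-quartile scaling, where ILK, PTK2 and TLN1 were lost. Genes lower by at least 2-fold numbered 4 and, as deposited, 7, where 4.21% and, as deposited, 6.96% of all genes tested were. The median log2 fold change of the adhesion genes, -0.37, was -0.57 as deposited, -0.47 with upper-quartile and -0.39 with median-of-ratios scaling, -0.41 with a pseudocount of 0.1, -0.33 without a filter, -0.40 with at least 1 TPM in every library, -0.35 with a mean of at least 0.5 TPM (chosen after seeing the data), and -0.43 to -0.34 with 1 library left out. Signs turned as deposited for ITGB1 (-0.24), ITGB8 (-0.067), CD151 (-0.012), ILK (-0.067) and PTK2 (-0.054), and for ITGB1 also with upper-quartile (-0.080) and median-of-ratios scaling (-0.0019) and among the fits with 1 library left out (-0.026 to 0.025). Same-numbered libraries of the groups deviated with correlations of 0.029, -0.0376 and 0.0142. With 3 libraries per group these weak values cannot tell whether same-numbered libraries shared a batch, and the labels do not say. The replicate block left 17 lower and 7 higher calls and ended the call of COL17A1 (adjusted p = 0.0799) and of GMDS-AS1 (0.0523). COL17A1 also lost its call without a filter. The causes were not tested. With no read totals, the counting error of genes under 1 TPM is unknown.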
